A study of Drosophila melanogaster with 4 samples.

Results

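The left arm of chromosome 2 of Drosophila melanogaster, 2L, carried 1460 of the 8614 regions in which the Myc protein was found enriched in whole wandering L3 larvae. Its members are all peaks whose sequence name in the deposited list is exactly 2L, so the heterochromatin scaffold 2LHet, with 4 peaks, is not among them. The arm held 16.9% of the whole list and 18.6% of the 7867 peaks on the 6 chromosome arms. The arms 3L, 3R and X, with 1556, 1815 and 1460 peaks, served as background.

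Myc is a basic helix-loop-helix leucine-zipper protein that dimerises with Max, binds DNA near promoters and raises the transcription of genes for ribosome production, metabolism and cell growth. The fly has 1 Myc gene, diminutive (dm), which was named for the small body of its mutants. In the larva, Myc is known as a driver of growth both in polyploid tissues such as fat body and salivary gland and in the diploid imaginal discs. A ChIP-seq peak is a stretch of chromosome where DNA recovered with an antibody was scored above background by a peak caller.

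The list rests on 2 ChIP libraries and 2 input DNA libraries, and no value in it belongs to a single library. All 4 came from the same strain, labelled Y cn bw sp. The label gives y[1] and oc[R3.2] in its first part, then Gr22b[1] with Gr22d[1] and cn[1], CG33964[R4.2], bw[1] and sp[1], and in its last part LysC[1] and lab[R4.2] together with MstProx[1] and GstD5[1], and then Rh6[1]. Sex is given as unknown, and whole larvae mix all tissues, so a peak cannot be traced to a cell type. The larvae were fixed in 1.8% formaldehyde for 15 min, and the ChIP used MycN, a rabbit polyclonal antibody against residues 46 to 507 of Drosophila Myc.

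Because the list has no replicate values and no read counts, the depth is unknown and no spread between replicates could be computed. All comparisons between arms are therefore descriptions, given beside the spread along the arms and without a p-value. Each score was assigned by the authors' peak caller on a scale that the file does not name, so it serves only to order peaks within the list. Positions are those of FlyBase Release 5, counted from 1, and on 2L they run from the tip (telomere) to the base (centromere). No gene annotation of that release was used and no peak was assigned to a gene. Genes are named only as landmarks: each was placed in a whole megabase from general knowledge of the Release 5 map, and their order was checked against a gene table of Release 6, in which all 21 single-gene landmarks were found on 2L in the same megabase order.

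As a whole, 2L resembled the other arms. In bins of 500 kb the mean density was 64.5 ± 23.7 peaks per Mb on 2L (SD, 45 bins), against 64.9 ± 22 on 3L, 3R and X together (148 bins). The ratio of the means was 0.995, a difference far smaller than the SD over bins. The densest bin of 2L had 118 peaks per Mb and the sparsest 20, against 112 and 6 on the background arms. Peaks on 2L were 201 to 13751 bp wide with a median of 732 bp, against a median of 758 bp on 3L, 3R and X. Their scores ran from 6.58 to 988.67 with a median of 60.46, against a median of 63.84. Spearman's rho between score and width was 0.83 across the 1460 peaks of 2L and 0.81 across the 4831 peaks of the background arms; both values of a peak come from the same caller and the same signal. Peaks covered 1.471 Mb of the 22.969 Mb from the first base to the last peak, or 6.41%, against 6.18% on the background arms.

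Several classes of peaks were also about as common as elsewhere. A peak was called strong when its score was at least 319.33, the limit of the top 10% of all arm peaks. By this limit 150 peaks of 2L were strong, or 10.3%, against 9.96% on 3L, 3R and X. Of the 1459 intervals between neighbours on 2L, 228 were under 1 kb, or 15.6%, against 15.2%. Intervals over 100 kb numbered 28, or 1.92%, against 1.84%. Each of these shares lay close to that of the background arms. For strong peaks this depended on the limit. Scores over 500 were found for 67 peaks of 2L, or 4.59%, against 172, or 3.56%, on 3L, 3R and X. Wide peaks were more frequent on 2L. There were 61 peaks over 3000 bp on 2L, or 4.18%, against 2.48% on the background arms, and 23 of the 61 stood in a single row at the base of the arm. Without that row the share on 2L was 2.66%, between the 1.22% of 3L and the 3.63% of X.

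**Figure D1:**
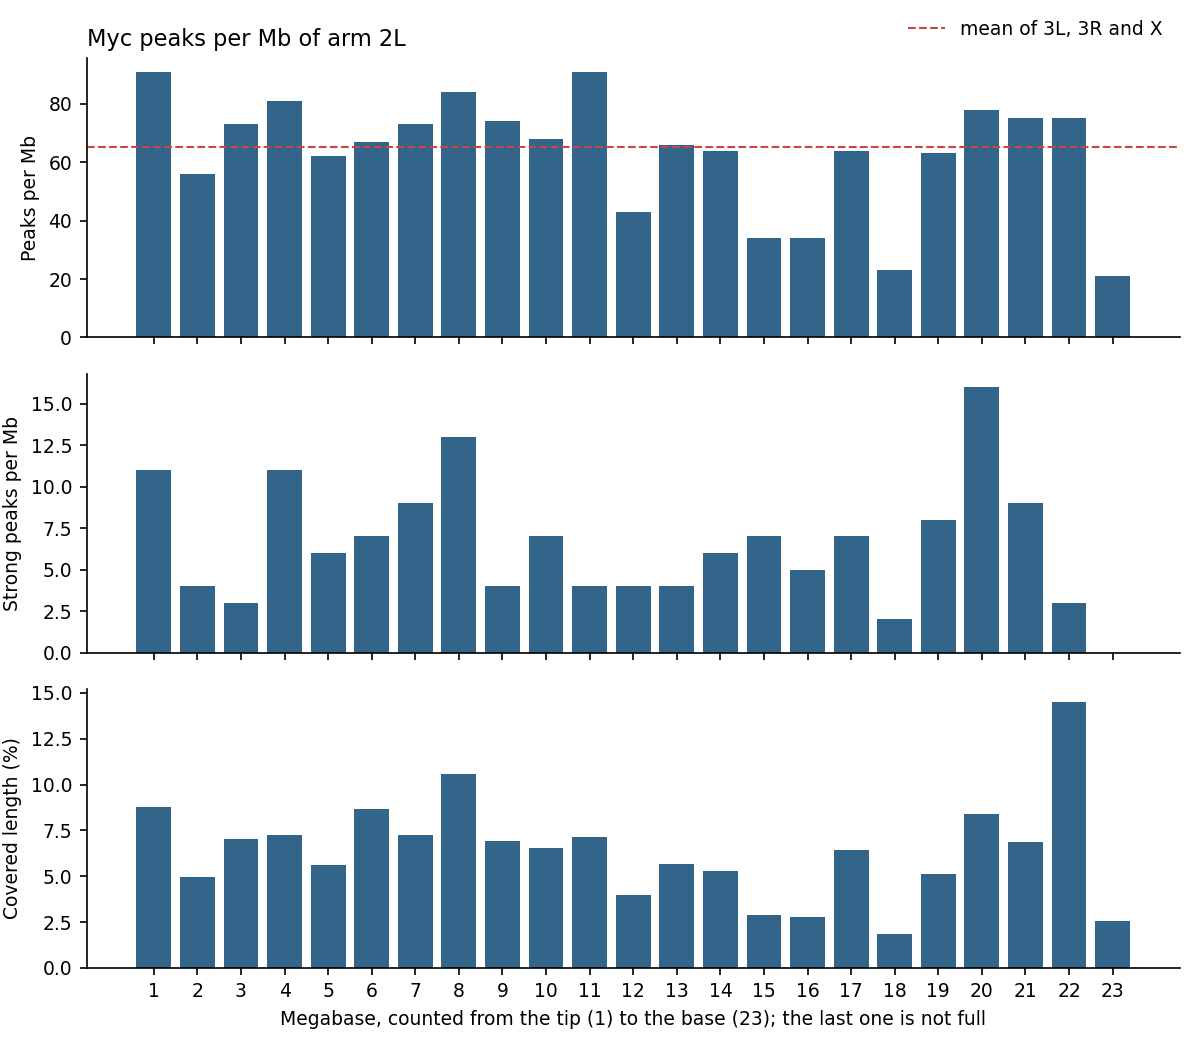
Number of peaks (top), number of strong peaks with a score of at least 319.33 (middle) and percentage of sequence covered by peaks (bottom) in each megabase of 2L, numbered from the tip at the left, so that number 15 is the stretch from 14 to 15 Mb. The dashed line is the mean number per full megabase on 3L, 3R and X. Numbers 15, 16, 18 and 23 fall to 34, 34, 23 and 21 peaks, number 20 has 16 strong peaks, and number 22 is covered over 14.5% of its length.

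The tip of the arm was densely bound. The first megabase, which holds l(2)gl, a tumour suppressor that controls cell polarity, and u-shaped (ush), a cofactor of GATA factors in blood cells, had 91 peaks. That was the highest number of any megabase on 2L, shared with the stretch from 10 to 11 Mb, against a highest value of 89 on 3L, 92 on 3R and 94 on X. The first peak of the arm lay at chr2L:5235-5924 and scored 21.84. The next 3 peaks followed one another at intervals under 1 kb, from chr2L:16388-17187 with a score of 204.51, over chr2L:17900-20108 with 240.09, to chr2L:20929-22175 with 164.22. The stretch from 0.2 to 0.3 Mb held 19 peaks with a median score of 56.6, and 9 of its intervals were under 1 kb. The tip megabase had 11 strong peaks, among them chr2L:573588-575363 with a score of 787.23.

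From 1 to 5 Mb the number of peaks per megabase ran from 56 to 81. There were 56 peaks from 1 to 2 Mb and 73 from 2 to 3 Mb, the megabase of decapentaplegic (dpp), a BMP-type growth factor of imaginal discs. The megabase from 3 to 4 Mb, with Mad, the transcription factor of the Dpp pathway, and timeless (tim), a clock component, held 81 peaks and 11 strong ones. From 4 to 5 Mb there were 62 peaks, among them the strong peak chr2L:4331483-4334436 with a score of 764.51.

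The stretch from 4.6 to 10.5 Mb stood out for its continuity. Over 5.93 Mb, from chr2L:4614141 to 10545000, no interval between neighbouring peaks exceeded 100 kb. The longest such unbroken run was 2.57 Mb on 3L, 2.49 Mb on 3R and 2.31 Mb on X. The run on 2L held 457 peaks, or 77.1 per Mb, with 45 strong and 17 wide peaks and a median score of 57.7. The runs of 3L, 3R and X had 75.9, 82.0 and 92.5 peaks per Mb. The density of the 2L run lay within the range of theirs. It was singled out after its values were seen, and no test of its length was made. The landmarks within it are vrille (vri), a repressor of the circadian clock, and chickadee (chic), which encodes profilin, both in the megabase from 5 to 6 Mb, then wingless (wg), a Wnt ligand, from 7 to 8 Mb and numb, a cell-fate determinant, from 9 to 10 Mb.

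**Figure D2:**
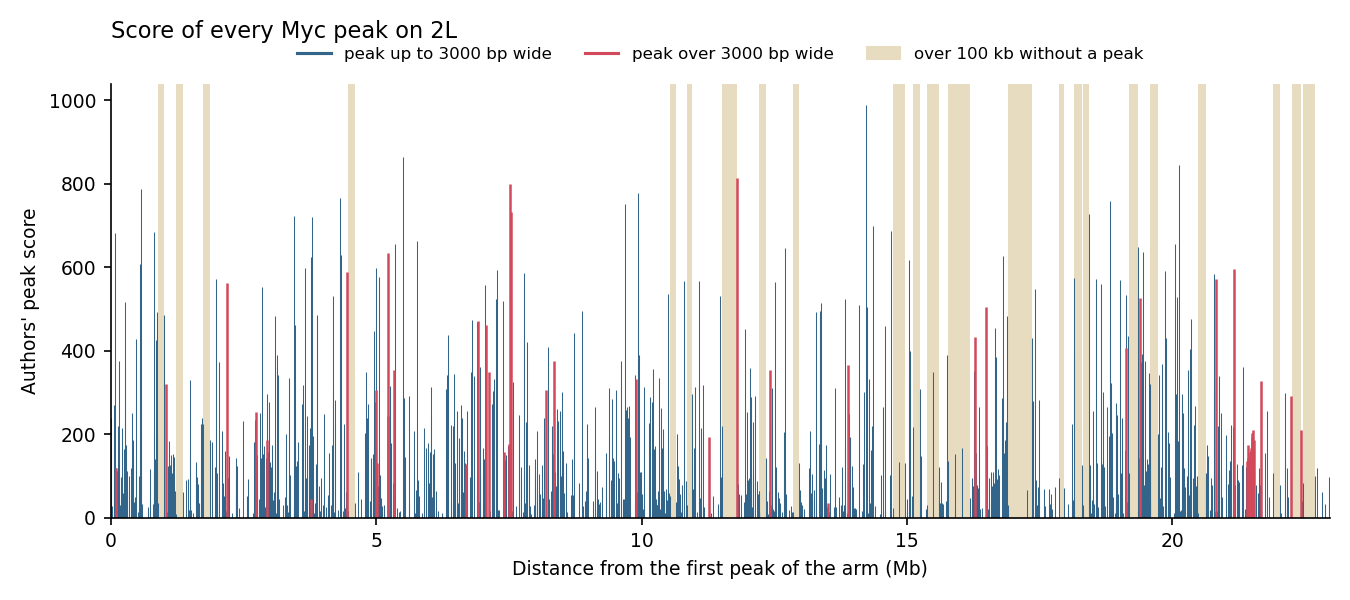
Authors' score of each of the 1460 peaks of 2L against its distance in Mb from the first peak of the arm, with the base at the right. Peaks over 3000 bp wide are red, all others blue, and the 28 intervals over 100 kb without a peak are shaded; no shading falls between 4.6 and 10.5 Mb, and 11 shaded intervals fall between 14 and 18 Mb.

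Within this run lay the broadest Myc regions of the arm. The widest peak of 2L, chr2L:5221224-5234974, extended over 13.75 kb and scored 243.75, in the same megabase as vri and chic. It was followed after 99 bp by further peaks: a narrow one scoring 22.65, then chr2L:5235981-5239156, 3176 bp wide with a score of 633.37, and a last narrow one scoring 10.19. Joined over gaps of up to 500 bp, these 4 peaks made a region of 18.5 kb. Its highest score therefore belonged not to the widest member but to the much narrower peak beside it.

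A region of about the same extent lay in the megabase of wg. There, chr2L:7531606-7537854 was 6.25 kb wide and scored 798.26, the fifth highest score of the arm. After 266 bp it was followed by chr2L:7538121-7545859, which was 7.74 kb wide and scored 731.61. These formed the only pair of strong peaks among the 228 pairs of neighbours on 2L less than 1 kb apart. On 3L, 3R and X both peaks were strong in 2 of 735 such pairs, so they were rare there too. Together with chr2L:7527152-7531130, which scored 140.53, the pair on 2L made a region of 18.7 kb. It was the longest of the arm after joining over gaps of up to 500 bp. In the same 100 kb, chr2L:7502532-7510247 was 7.72 kb wide but scored 176.23. The window from 7.5 to 7.6 Mb held 16 peaks in all, 4 of them wide, and its peaks covered 35.3 kb. The megabase from 7 to 8 Mb had 7 wide and 13 strong peaks, and peaks covered 10.6% of it.

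The other members of the 5 widest outside the basal row were chr2L:19392282-19400985, 8.70 kb wide with a score of 525.33, and chr2L:7067632-7074787, 7.16 kb wide with a score of 460.77. Of the 38 wide peaks outside the row 22 were strong, against 52 of the 120 wide peaks of 3L, 3R and X. The median score was 340.87 for the 38, against 276.48 for the 120. The median width was 3796 bp for these 38, against 3752.5 bp for the 120. The 38 lay in 22 of the 500 kb bins of the arm, with at most 5 in 1 bin, against at most 3 on 3L, 4 on 3R and 5 on X.

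The stretch around 10 Mb was dense in weak peaks. From 10.2 to 10.3 Mb there were 21 peaks with a median score of 41.9 and 1 strong peak, and from 10.3 to 10.4 Mb 16 peaks with a median score of 33.1. The whole megabase from 10 to 11 Mb held 91 peaks, as many as the tip, but only 4 strong ones and no wide one, and its median score was 38.4. In the tip megabase the median score was 64.4 with 11 strong peaks. Equal numbers of peaks thus went with different scores.

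Dense windows were defined as stretches of 100 kb with at least 15 peaks. There were 12 of them among the 229 full windows of 2L, or 5.24%, against 29, or 3.88%, on 3L, 3R and X. When peaks within 1 kb were merged, 2 dense windows were left on 2L, against 4 on the background arms. The 12 windows held 204 peaks, or 14% of the arm. The fullest, from 21.4 to 21.5 Mb, had 22 peaks, of which 18 lay within the extent of the basal row, 15 of them wide. Without the row and the narrow peaks in it, 10 windows, or 4.37%, remained. Apart from the windows already described, 17 peaks lay from 12 to 12.1 Mb with a median score of 47.6, and 16 each lay from 5.0 to 5.1 Mb and from 8.3 to 8.4 Mb with medians of 62.3 and 46.2. A further 16 lay from 21.5 to 21.6 Mb, including 11 within the extent of the row, 8 of them wide. The fullest windows of 3L, 3R and X had 20, 21 and 21 peaks. At the other extreme, 13 windows of 2L held no peak, or 5.68%, against 6.43%.

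From 11 to 12 Mb peaks were fewer. This megabase had 43 peaks and contained the second longest empty interval of the arm, 288.2 kb from 11517681 to 11805904. That interval ended at a strong and wide peak, chr2L:11805905-11809648, which scored 812.38, the fourth highest on 2L, and was 3.74 kb wide. Its next neighbour towards the base lay 3.7 kb away. From 12 to 14 Mb, a stretch with nubbin (nub), a POU-domain factor of the wing disc, there were 66 and 64 peaks in the 2 megabases. The mean over the full megabases of 2L was 65.4.

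Among stretches of 4 consecutive full megabases, the one from 14 to 18 Mb had the lowest density of the arm. These 4 megabases held 155 peaks, a density of 38.8 per Mb, while the rest of 2L had 68.8 per Mb. The emptiest 4 consecutive megabases held 195 peaks on 3L, 208 on 3R and 206 on X. On 3L that stretch was the base of the arm, from 20 to 24 Mb. On X it ran from 18 to 22 Mb, also near the base. On 2L it was interior, as on 3R, where it ran from 21 to 25 Mb of 27.895 Mb. By megabase there were 34 peaks from 14 to 15 Mb, where Adh, the gene of alcohol dehydrogenase, lies, and 34 from 15 to 16 Mb, where the zinc-finger factors escargot (esg) and snail (sna) and Cyclin E (CycE), the cyclin of S-phase entry, lie. The next megabase, with cactus (cact), the inhibitor of Dorsal, and dachshund (dac), a nuclear factor of eye and leg discs, held 64 peaks. From 17 to 18 Mb, with dorsal (dl), an NF-kappaB factor of dorsoventral patterning, there were 23 peaks, the fewest of the 22 full megabases of 2L. The stretch from 14 to 18 Mb was chosen as the lowest, so its count is a description. Its long intervals and isolated peaks, given next, are tied to that choice and are no separate result.

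The sparse stretch held 11 of the 28 intervals over 100 kb, which together took up 39.1% of its length. The longest empty interval of the arm lay here, 350.1 kb from 16910552 to 17260652, against longest intervals of 331.6 kb on 3L, 254.5 kb on 3R and 332.3 kb on X. It was bordered on the tip side by chr2L:16910112-16910551 with a score of 31.9, and on the base side by chr2L:17260653-17261003 with a score of 65.84. The peak on the base side was itself followed by 106.8 kb without a peak. It was 1 of 4 peaks on 2L with more than 100 kb free of peaks on both sides, and all 4 lay between 14 and 18 Mb. The other 3 were chr2L:14851315-14852314 with a score of 132.72, chr2L:15498634-15500483 with 348.53 and chr2L:16049575-16050001 with 166.4. Thus 1 of the 4 isolated peaks of 2L was strong. Isolated peaks made up 0.274% of 2L, against 0.166% of 3L, 3R and X together. By arm the shares were 0.257% on 3L, which also had 4, 0.11% on 3R and 0.137% on X.

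Scores in this stretch differed between its megabases. The medians were 37.7 from 14 to 15 Mb and 38.8 from 15 to 16 Mb, among the 3 lowest of the arm, but 62.9 and 68.4 from 16 to 17 and from 17 to 18 Mb. Over all 4 the median score was 57.1, against 60.6 over the rest of 2L, and 21 of its 155 peaks were strong, or 13.5%, against 9.89% of the rest. The strongest Myc peak of the arm, chr2L:14233601-14234981, with a score of 988.67 and a width of 1381 bp, lay here, with 35.7 kb free of peaks on its tip side and 16.4 kb on its base side. Wide peaks numbered 2 of 155, and both lay in the megabase of cact and dac. One of them, chr2L:16490923-16496373, was 5.45 kb wide and scored 505.04. On the rest of 2L 59 of 1305 peaks were wide, 23 of them in the basal row. The share of wide peaks was 1.22% on 3L and 2.48% on 3L, 3R and X together.

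The intervals over 100 kb on 2L summed to 4.05 Mb, or 17.6% of the arm, against 18.9% of 3L, 15.1% of 3R and 20.4% of X. Although 2L had the longest single interval, intervals over 150 kb numbered 5 on 2L, or 0.343% of all intervals, against 13 on 3L, 11 on 3R and 11 on X, or 0.836%, 0.606% and 0.754%. Besides those of 350.1 and 288.2 kb, the 5 were 218.3 kb from 22472238 to 22690568, 178.0 kb from 22250427 to 22428403 and 170.8 kb from 19190844 to 19361650. The 52 peaks that bordered an interval over 100 kb had a median score of 97.0, against 59.7 for the other 1408 peaks of the arm. On 3L, 3R and X the 170 bordering peaks had a median score of 65.6. Strong peaks made up 5 of the 52 on 2L, a share about that of the other 2L peaks, of which 145 of 1408 were strong, and 21 of the 170 on the background arms.

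**Figure D3:**
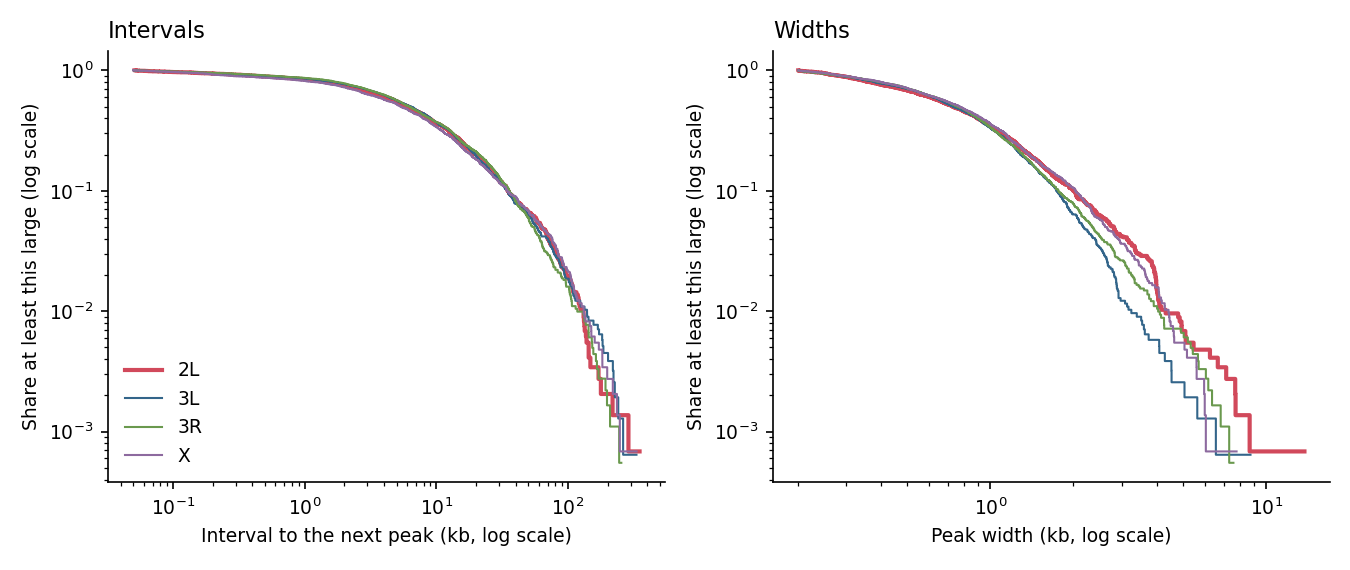
Share of intervals between neighbouring peaks (left) and of peak widths (right) at least as large as the value on the horizontal axis, for 2L (thick red line), 3L, 3R and X, all axes logarithmic and in kb. The interval curves lie together up to about 100 kb, and among widths 2L carries a shoulder at the widths of the 23 peaks of the basal row, 3253 to 4317 bp.

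From 18 to 22 Mb the arm filled again. There were 63 peaks from 18 to 19 Mb, where tailup (tup), a LIM-homeodomain factor, lies, with the strong peak chr2L:18829960-18831541 at a score of 757.46. The megabase from 19 to 20 Mb, with Ddc, the gene of dopa decarboxylase, and spitz (spi), a ligand of the EGF receptor, held 78 peaks. Of these 16 were strong, more than in any other megabase of 2L and against at most 11 on 3L, 14 on 3R and 11 on X. Their scores ran from 320.17 to 649.16 with a median of 417.59, so none was among the 10 highest of the arm. From 20 to 21 Mb, with caudal (cad), a homeobox factor, there were 75 peaks. The third highest score of 2L, 844.65, was there, at chr2L:20120230-20121532.

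The remaining peaks among the 10 highest scores of 2L lay toward the tip. The second, chr2L:5519304-5520965, scored 863.32, and its nearest neighbour on the base side lay 2.7 kb away. In the megabase of numb, chr2L:9947130-9948721 scored 776.28 and chr2L:9698700-9701500 scored 751.43. The 10 were thus spread over 9 megabases between 0 and 21 Mb, and none lay in the last 2 Mb. Their widths ran from 1303 to 6249 bp, against a median of 1652.5 bp for all 150 strong peaks of the arm and of 1533 bp for the 481 of 3L, 3R and X. Strong peaks followed one another with a median step of 91.3 kb from start to start. The longest step without one was 0.74 Mb, from 17409890 to 18151857.

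The row of 23 wide peaks occupied 122.6 kb at the base, from 21416849 to 21539494. Its members were 3253 to 4317 bp wide, and 21 of the 22 steps from start to start were 4811 to 5149 bp. These 21 steps averaged 5021 ± 94.7 bp (SD), so that their relative spread was 1.89%. On 3L, 3R and X the longest chain of wide peaks linked by steps under 20 kb had 3 members, and so did the next chain on 2L. With a limit of 2000 bp in place of 3000 bp, the row still had 23 members and the longest chain on 3L, 3R and X had 6. Tandem repeats of the replication-dependent histone genes, which encode the proteins that package newly replicated DNA, are known to lie in the megabase from 21 to 22 Mb. In the gene table of Release 6 they come after all 21 landmark genes. Whether each peak sits on a histone unit was not tested, since no annotation of Release 5 was used.

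Between neighbouring members of the row, leaving out the long step, 770 to 1346 bp carried no wide peak, with a median of 1064 bp. The long step of 13956 bp, 2.78 times the mean of the others, left 10111 bp from 21440832 to 21450942 without a wide peak. It divided the row into 5 members toward the tip, with scores from 105.92 to 173.77 and a median of 135.16, and 18 toward the base, with scores from 118.73 to 209.25 and a median of 156.46. The ranges of the scores overlapped. The 6 narrower peaks inside the row were 207 to 431 bp wide and scored 8.5 to 28.78. Between 21540847 and 21543689, just beyond the last member, 4 more peaks of 225 to 1014 bp followed, with scores from 27.92 to 107.19.

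**Figure D4:**
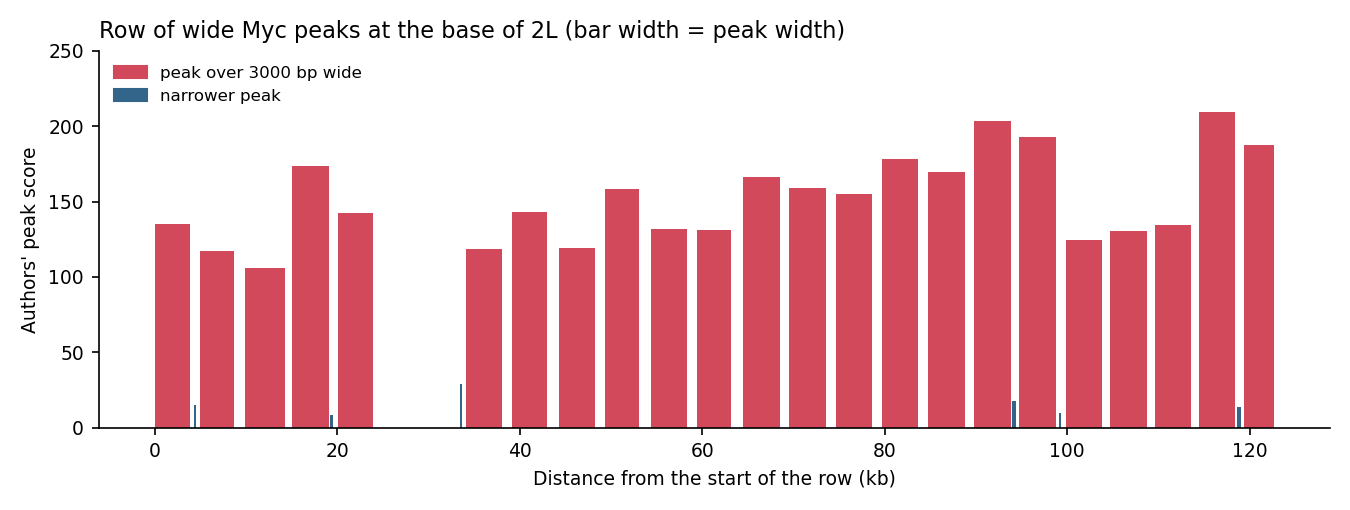
The 23 wide peaks of the row (red) and the 6 narrower ones among them (blue), each drawn at its distance in kb from the start of the row and at its true width, with the authors' score as height. The wide peaks repeat about every 5 kb with scores from 105.92 to 209.25, and the step after the fifth is 13956 bp.

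Members of the row were wide without being strong. None reached the limit of 319.33, and the highest of them ranked 273 by score among the 1460 peaks of the arm. All the same, the lowest wide member, at 105.92, scored above the median of 60.46 for all of 2L. Their median score was 143.26, and 27.3% of the peaks of 2L scored above it. For the 38 other wide peaks of 2L the median was 340.87, and 32 of these scored above the median of the row. Within the row, covered length added up to 90.4 kb, or 6.14% of all sequence covered by peaks on 2L. Peaks covered 14.5% of the megabase from 21 to 22 Mb, the highest value of the arm, but 5.30% when the row and the narrow peaks in it were left out. The number of peaks in that megabase was 75 with them and 46 without.

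Toward the centromere the arm thinned sharply. The last 1 Mb held 21 peaks, while the rest of 2L had 65.5 per Mb, which gives a ratio of 0.32. The same ratio was 0.12 on 3L, 0.94 on 3R, whose base lies at its first bases, and 0.30 on X. Strong peaks ended before the base: the last, chr2L:21680909-21684243, scored 328.23 and lay 1.28 Mb from the end of the last peak, with 26 weaker peaks beyond it. No strong peak was found in the 1 Mb at the base of 3L and X either, whereas the 1 Mb at the base of 3R had 5. The median score of the 21 basal peaks was 78.2, with a highest value of 298.2, and their median width was 975 bp, against medians of 60.46 and 732 bp for all of 2L. The last peak of the arm lay at chr2L:22967821-22968566 and scored 34.42. The 4 peaks of 2LHet, listed apart, scored 23.1 to 169.14.

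Among the 228 pairs of neighbours on 2L with an interval under 1 kb, the weaker member's median score was 12.5, against 14.6 in the 735 such pairs of 3L, 3R and X. For the stronger member the median was 104.5, against 84.7. Sorting the members of a pair sets these medians apart in itself, so only the arms are compared. The weaker member scored under 20 in 173 pairs of 2L, or 75.9%, against 476 pairs, or 64.8%, on the background arms. The 228 pairs take in those of the basal row. Without the row and the narrow peaks in it, 211 intervals of 2L were under 1 kb. Scores of pairs were not computed without the row, so its part in these differences is unknown. A strong peak was present in 32 pairs, or 14% of those on 2L, against 14.4%. Joining peaks over gaps of up to 500 bp left 1299 regions on the arm, 122 of which contained more than 1 peak, with at most 5. When peaks within 1 kb were merged, 1232 regions were left of the 1460 peaks of 2L. On 3L, 3R and X 4096 were left of 4831.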

How the data were processed

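The data analysed are 1 deposited peak list for 2 ChIP and 2 input libraries, which names MACS as source and, per the file headers, uses FlyBase Release 5. The submitters' processing notes name BWA, MACS2, CASAVA in versions 1.7.0.3 and 1.7.0.2 and the build BDGP5, with no role for each. Threshold, filters and pooling of replicates: not given in the sources used here. In this list, the deposited score is the authors' value per peak, on a scale that no header names, and the other deposited columns used are start and end. The limits of the list depend on that unknown threshold.

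From these, widths, intervals, counts in full windows counted from the first base (by peak start), medians and covered lengths were computed with Python 3.11.15, numpy 2.4.6 and pandas 2.3.3, and checked on a simulated list with planted features. An arm's length was taken to the end of its last peak. No test was run, since the list has no replicates. The peaks named are the 10 highest scores, the 5 widest outside the row, the 5 longest empty intervals, the 5 densest 100 kb windows with ties, the first and last peak and the ends of the row; other features were singled out after their values were seen. The peaks and classes were chosen with earlier results of these data known.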

Additional observations from a re-analysis of the deposited data

How the results depend on the processing

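Of 34 alternatives, all planned, 16 left a result within 1.5 times (counts) or within its spread. The other 18 mostly moved with the definition. The spread was an SD over bins, or a 95% binomial interval for the share of close neighbours. For the density ratio this SD was 0.365, far wider than the range of its alternatives. The 16 are therefore no measure of robustness. The upper part of 2L by score held 730 peaks, a number fixed by its definition. The next counts stand beside those of 3L, 3R and X, which held 4831 peaks against the 1460 of 2L. Wide peaks numbered 146 over 2000 bp and 10 over 5000 bp, against 394 and 24, and 38 without the row, against 120. Strong peaks numbered 90 in the top 5% and 295 in the top 20%, against 239 and 978. Dense windows numbered 41 of 50 kb with at least 8 peaks and 2 of 200 kb with at least 30, against 106 and 1. When peaks within 1 kb were merged, 2 dense windows were left, against 4 on 3L, 3R and X. Empty intervals numbered 98 over 50 kb and 5 over 150 kb, against 308 and 35. Among peaks above the median score, 58 intervals exceeded 100 kb, against 150. The share of close neighbours was 11.0% under 500 bp, 24.8% under 2 kb and 3.8% among peaks above the median score, against 10.7%, 24.1% and 3.79% on 3L, 3R and X. The ratio at the base was 0.74 over the last 2 Mb, which take in the row. Above the median score, the median score and width of 2L were 160.1 and 1177 bp, against 158.8 and 1125 bp. The density ratio ran from 0.965 to 1.001 over its 5 alternatives. No paired analysis was possible because the list does not separate the libraries, which also means that none could be left out.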
